A study of Caenorhabditis elegans with 8 samples.

Results

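The fbxb- and fbxc- genes of C. elegans, 2 subfamilies of F-box genes, were followed across 4 chromatin mutant genotypes measured on Agilent expression arrays. Members were all genes on the array whose symbol begins with fbxb- or fbxc-, taken by name and not by their signal. This gave 147 genes read by 148 probes, of 19441 genes in all. They were 103 fbxb- genes and 44 fbxc- genes, and another 22 genes of these names in the annotation had no probe matched here. The genotypes combined deletions of hpl-1 and hpl-2, which encode the heterochromatin protein HP1 homologues, and of his-24, which encodes a linker histone H1 variant. The alleles were hpl-1(tm1624), hpl-2(tm1489) and his-24(ok1024), in the N2 background. The genotypes were the double mutants hpl-1 his-24 and hpl-1 hpl-2, the double mutant hpl-2 his-24, and the mutant with all 3 deletions, called triple below, and 3 of the 4 carry hpl-2(tm1489), all but hpl-1 his-24. Each genotype had 2 arrays, each from RNA of 80 to 100 whole worms raised at 21°C, at the L4 stage by the study's methods and at L4 and young adult by the labels. Wild type was not analysed here, so each value below compares mutants with each other.

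An F-box protein carries a short domain, the F-box, that binds a Skp1-related protein, and through it docks on a cullin and a RING protein to form an SCF ubiquitin ligase. The rest of the F-box protein holds the substrate that the complex marks with ubiquitin. Nematodes have very large and fast-changing sets of F-box genes, many lying side by side, and for most fbxb- and fbxc- genes no substrate is known. The files assign no role to single members, so the results are ordered by subfamily, and the Skp1-related, cullin and RING genes follow them.

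Of the deleted genes, his-24 did not stand well above background on the 6 arrays labelled with its deletion, and hpl-2 read 0.04 to 0.52 on the 6 arrays labelled with hpl-2(tm1489), against 1.04 and 1.16 on the hpl-1 his-24 arrays. The hpl-1 probe was dark on both hpl-1 hpl-2 arrays, at −9.04 and −8.81 on the log2 scale defined below, but read −0.36 and −0.30 where the label was hpl-1 his-24 and −0.60 and −0.53 where it was triple. This goes against the hpl-1 label of 4 arrays if the probe lies in the deleted part of the gene, which was not tested. For hpl-1 hpl-2 the study names the hpl-1 allele given above in its summary of the arrays, and another hpl-1 allele in its summary of phenotypes. Every direction below is one between arrays so labelled. Replicate arrays correlated at 0.986 for hpl-2 his-24 and at 0.996 or more for the other genotypes. Both hpl-2 his-24 arrays were on a slide of their own, scanned on a day of their own, so in comparisons with that genotype slide and genotype cannot be told apart. The hpl-1 his-24 arrays were on 2 slides that held no other genotype here, so in comparisons with hpl-1 his-24 the 2 cannot be told apart either. The other 4 arrays shared 2 slides.

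The members were lowest in hpl-1 his-24. Levels are log2 brightness after background subtraction, relative to the 75th percentile of the same array, so a level of −5 is far below that percentile. Over all 147 members the median level was −6.12 and −6.32 on the hpl-1 his-24 arrays, −4.59 and −4.50 on the hpl-2 his-24 arrays, −4.57 and −4.43 on the hpl-1 hpl-2 arrays, and −4.76 and −4.83 on the triple arrays. The hpl-1 his-24 medians lay below the other 6, which lay close together. The number of members well above background on an array was 102 and 80 of 147 in hpl-1 his-24, and 118 to 129 on the other 6 arrays. Over the 77 members well above background on all 8 arrays the medians kept this order, with −5.02 the lower of the pair in hpl-1 his-24 and values from −3.59 to −3.13 elsewhere. Both subfamilies showed it: the fbxb- medians were −6.28 and −6.63 in hpl-1 his-24 and from −5.09 to −4.55 elsewhere, and the fbxc- medians were −5.43 and −5.35 in hpl-1 his-24 and from −4.18 to −3.62 elsewhere. Since whole worms were measured, fewer cells of a type and less RNA per cell cannot be told apart.

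**Figure D1:**
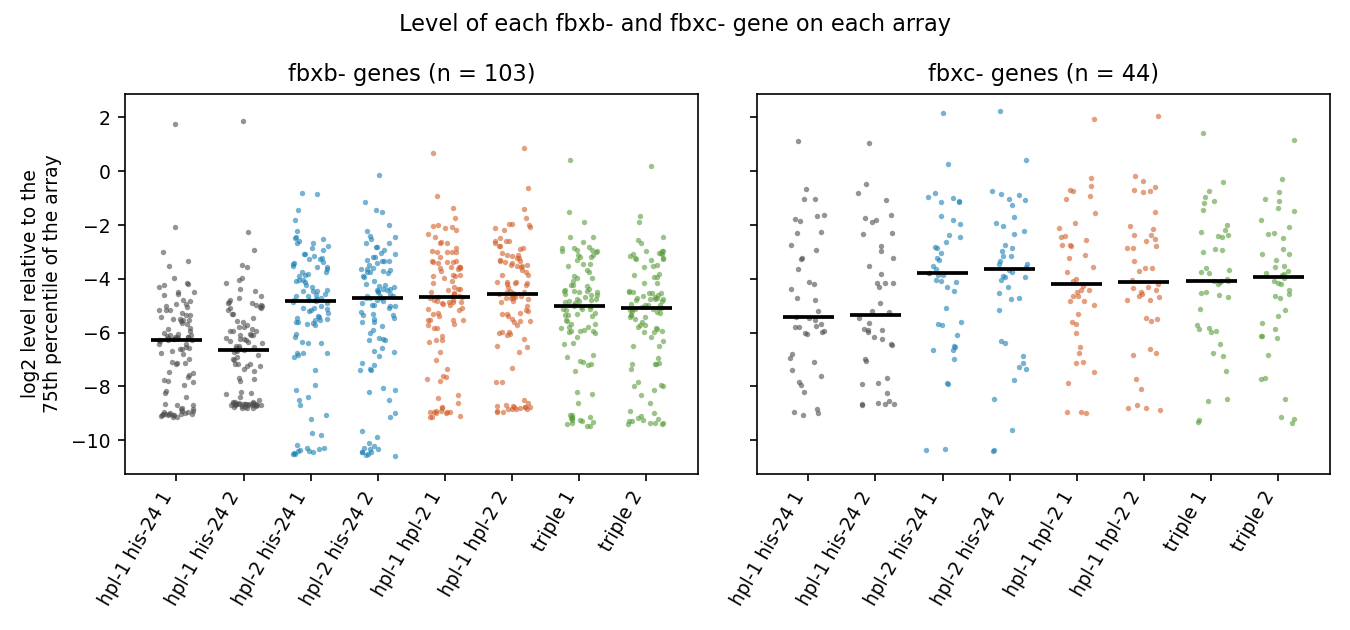
Level of each of the 103 fbxb- genes (left) and 44 fbxc- genes (right) on each of the 8 arrays, as log2 brightness relative to the 75th percentile of the array; each point is 1 gene and each bar the median. Both hpl-1 his-24 arrays have a lower median than the other 6 in each panel; probes differ in sensitivity, so points are to be compared across arrays and not between genes.

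Taken gene by gene, 128 members could be tested, 87 fbxb- and 41 fbxc-, because in 1 or more genotypes both arrays were well above background. The other 19 could not, and 12 members were well above background on no array. Of the 128, 50 were not well above background on both hpl-1 his-24 arrays and 25 on neither, so these entered through a genotype where they were higher. In 102 of 128 tested members both hpl-1 his-24 arrays lay below all other 6 arrays, against a background of 22.5% of the 17092 identifiers tested. This held for 76 of 87 fbxb- genes and 26 of 41 fbxc- genes, for 61 of 168 tested genes of the related fbxa- subfamily, and for 59 of the 77 members well above background everywhere. The genotype with the highest mean was hpl-1 hpl-2 for 72 of the 128, hpl-2 his-24 for 33, the triple for 17 and hpl-1 his-24 for 6. Over all 17092 identifiers tested these counts were 3280, 5606, 3664 and 4542 in the same order. In limma's F test over the 4 genotypes, 114 of 128 had an adjusted p below 0.05, where the share of all identifiers was 76.6%.

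Against hpl-1 his-24, members of both subfamilies rose in each of the other 3 genotypes and few fell. A member is said to rise or fall when its limma test, adjusted over all 17092 identifiers, gave a p below 0.05 and its log2 fold change was beyond 1.5. In hpl-1 hpl-2 72 tested members rose (background 4.91%) and 1 fell (background 3.25%). In hpl-2 his-24 76 rose (background 6.82%) and 3 fell (background 9.72%). Dark probes read lower on the hpl-2 his-24 arrays, with a median over the untested members of −10.29 there and −8.82 in hpl-1 his-24. Even his-24, dark in both genotypes, passed as a fall there, at −1.50. The part of this offset in the falls was not tested. In the triple 52 rose (background 5.59%) and none fell (background 2.62%), while 3 were lower there at adjusted p alone (background 19.1%) and 4 at an unadjusted p below 0.05. The reference in all 3 comparisons was the same pair of arrays, so their counts are not independent of each other. Altogether 45 members, 37 fbxb- and 8 fbxc-, rose in all 3 (background 2.87%), and 85 rose in at least 1 (background 9.46%).

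A larger share of the tested fbxb- than of the tested fbxc- genes rose, with larger medians. In hpl-1 hpl-2 62 of 87 fbxb- genes rose (71.3%) and the median log2 fold change was 2.06, against 10 of 41 fbxc- genes (24.4%) and a median of 0.76. In the triple 42 fbxb- (48.3%) and 10 fbxc- genes (24.4%) rose, with medians of 1.49 and 0.72. In hpl-2 his-24 the subfamilies lay closer, with 58 fbxb- (66.7%) and 18 fbxc- genes (43.9%) that rose and medians of 1.86 and 1.21. The medians of the 168 tested fbxa- genes were 0.13, 0.26 and 0.25 in the same order, and those of all identifiers were near 0. The difference between the subfamilies was not tested.

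**Figure D2:**
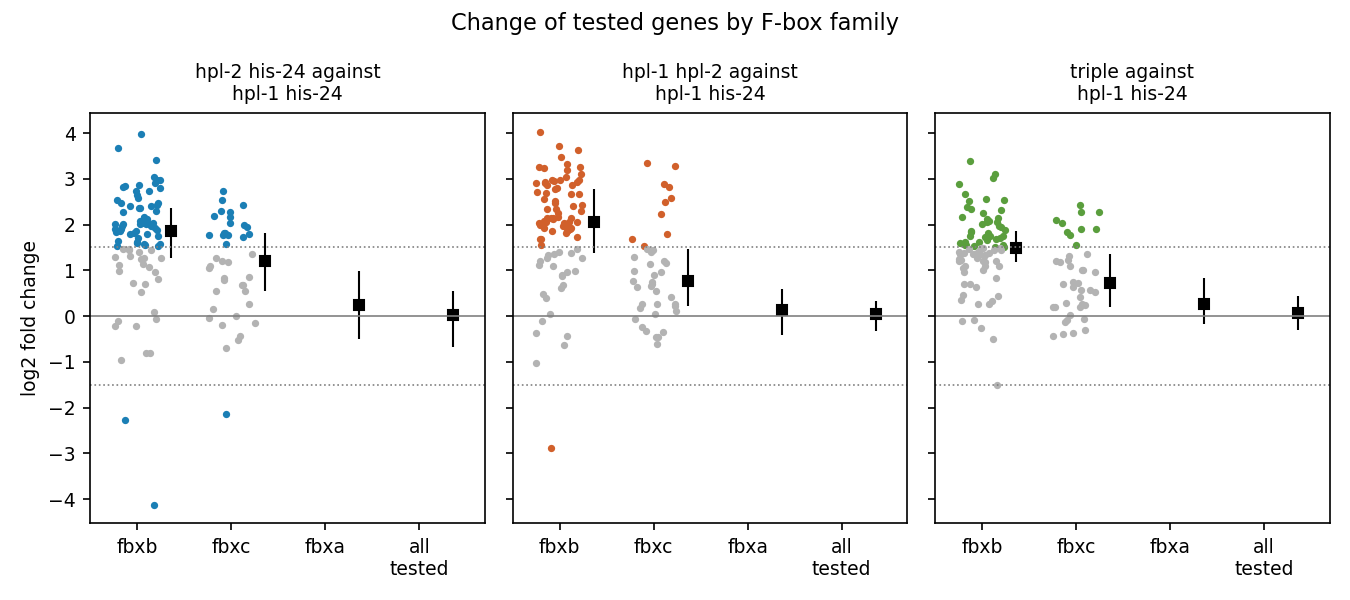
Log2 fold change in each of the other 3 genotypes against hpl-1 his-24; points are tested fbxb- and fbxc- genes, coloured where they rose or fell and grey otherwise, dotted lines mark 1.5, and squares with bars give the median and quartiles of each subfamily, of fbxa- and of all tested identifiers. Most fbxb- points lie above the upper dotted line in hpl-1 hpl-2, where the median is 2.06, and the fbxc- medians are 0.72 to 1.21. Points include fitted values of genes that are not well above background in hpl-1 his-24.

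How many members passed the fold threshold depended on how dim signal was treated, while higher members outnumbered lower ones under each treatment. Where all hpl-1 his-24 arrays of a member were not well above background only a lower bound of its fold is known, which was so for 15, 16 and 17 of the members that rose in triple, hpl-1 hpl-2 and hpl-2 his-24. For 2 of these in triple and 3 in hpl-2 his-24 the bound did not lie above equal levels, so for them no rise is shown. Every tested member that was dim in 1 or both genotypes was then set at its bound, or at no change where it had none. The median over the tested members so fell from 1.36 to 1.18, from 1.83 to 1.45 and from 1.75 to 1.45. Among the 77 members well above background on all 8 arrays, 21, 35 and 40 rose (background 3.04%, 3.18% and 4.53%). Background correction with normexp, which adds an offset before the log, left 7, 34 and 20 that rose (background 2.18%, 2.65% and 3.46%), and the authors' own log2 values, which hold the background, 5, 26 and 25 (background 2.04%, 2.46% and 4.02%). At adjusted p alone the counts of higher members were 95, 102 and 105 (background 22.9%, 20.2% and 33.5%), 84, 94 and 100 with normexp (background 18.7%, 17.1% and 29.8%), and 87, 98 and 105 with the authors' values (background 22.5%, 20.7% and 36.7%).

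Among single fbxb- genes, fbxb-14 (W08F4.9, chromosome II) had the largest rise in triple among members measured on both sides. Its level was −5.16 and −4.79 in hpl-1 his-24, −0.85 and −1.13 in hpl-2 his-24, −2.02 and −1.96 in hpl-1 hpl-2, and −1.50 and −1.66 in triple. The hpl-1 his-24 arrays were the 2 lowest, the hpl-2 his-24 arrays the 2 highest, and no genotypes overlapped. The log2 fold change against hpl-1 his-24 was 3.98 in hpl-2 his-24 (SE 0.16, adjusted p = 7.99e-06), 2.98 in hpl-1 hpl-2 (SE 0.16, adjusted p = 4.14e-05) and 3.39 in triple (SE 0.16, adjusted p = 2.74e-05), all by limma.

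fbxb-69 (F09C3.5, chromosome I) read −6.29 and −6.25 in hpl-1 his-24, −3.62 and −4.08 in hpl-2 his-24, −3.01 and −2.89 in hpl-1 hpl-2, and −3.11 and −3.21 in triple. It was again lowest in hpl-1 his-24, with hpl-1 hpl-2 and triple close together at the top. Its rise was 3.32 log2 units in hpl-1 hpl-2, 3.11 in triple and 2.42 in hpl-2 his-24 (SE 0.16 each), the last being 1.46 with normexp and so below the fold threshold. Both genes stand in a list that the study chose on arrays of this experiment, so their rise is not independent evidence of that list.

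A number of fbxb- genes were highest in hpl-1 hpl-2. fbxb-17 (F58E1.5, chromosome II) read −6.14 and −6.06 in hpl-1 his-24, −3.55 and −3.17 in hpl-2 his-24, −2.62 and −2.61 in hpl-1 hpl-2, and −3.97 and −3.55 in triple, a rise of 3.48 in hpl-1 hpl-2 (SE 0.18, adjusted p = 3.43e-05 by limma). fbxb-83 (T17A3.6, chromosome III) read −5.47 and −5.58, then −3.27 and −3.08, then −2.34 and −2.18, and −3.66 and −3.51 in the same order of genotypes, a rise of 3.27 in hpl-1 hpl-2 (SE 0.12, adjusted p = 1.08e-05 by limma). In both genes the hpl-1 hpl-2 arrays were the 2 highest of the 8 and the hpl-1 his-24 arrays the 2 lowest, with hpl-2 his-24 and triple between them. fbxb-71 (F40F4.1, chromosome X) rose by 3.24 in hpl-1 hpl-2 (SE 0.55), but its hpl-1 his-24 arrays, at −7.94 and −6.07, lay far apart. fbxb-31 (M151.5, chromosome II) rose by 2.97 in hpl-1 hpl-2 (SE 0.23).

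fbxb-54 (K05F6.7, chromosome II) was nearly level in 2 genotypes. It read −4.23 and −4.38 in hpl-1 his-24, −1.45 and −1.52 in hpl-2 his-24, −1.38 and −1.39 in hpl-1 hpl-2, and −2.43 and −2.44 in triple. The triple arrays lay between hpl-1 his-24 and the other 2 genotypes, without overlap. Its log2 fold change against hpl-1 his-24 was 2.92 in hpl-1 hpl-2, 2.82 in hpl-2 his-24 and 1.87 in triple (SE 0.09 each). fbxb-38 (C33C12.5, chromosome II) and fbxb-70 (ZK909.5, chromosome I) changed by about the same amount in each genotype. The rises of fbxb-38 were 2.52 in hpl-1 hpl-2, 2.17 in hpl-2 his-24 and 2.56 in triple (SE 0.15 each), and those of fbxb-70 were 2.09, 2.30 and 2.53 (SE 0.10 each). fbxb-93 (Y63D3A.9, chromosome I) rose most in hpl-2 his-24, by 3.05 against 1.85 in hpl-1 hpl-2 and 2.06 in triple (SE 0.35 each), with hpl-1 his-24 arrays at −5.84 and −6.99.

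For the dimmest hpl-1 his-24 signals only bounds can be given. fbxb-117 (F55C9.1, chromosome V) was not well above background in hpl-1 his-24, at −8.79 and −8.80, and read −5.28 and −4.97 in hpl-2 his-24, −4.84 and −4.69 in hpl-1 hpl-2, and −5.95 and −5.88 in triple. It was therefore at least 3.54-fold higher in hpl-1 hpl-2, 2.76-fold in hpl-2 his-24 and 1.60-fold in triple. fbxb-20 (ZC204.9, chromosome II) was at least 3.76-fold, 2.27-fold and 1.43-fold higher in the same order, and fbxb-2 (T26H2.3, chromosome V) at least 2.76-fold, 2.36-fold and 1.29-fold. For all 3 genes the order was hpl-1 hpl-2, hpl-2 his-24, triple. In fbxb-2 the hpl-2 his-24 arrays overlapped with the hpl-1 hpl-2 arrays, and in the other 2 genes no genotypes did. With normexp the changes of fbxb-117, fbxb-20 and fbxb-2 were below the fold threshold in triple, at 0.71, 0.56 and 0.58 log2 units, and in hpl-2 his-24, at 1.33, 1.04 and 1.16, and that of fbxb-2 also in hpl-1 hpl-2, at 1.32. With the deposited values none of these genes passed in any genotype, and in hpl-1 hpl-2 fbxb-117 was at 1.48, fbxb-20 at 1.39 and fbxb-2 at 1.22.

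The fbxc- genes were more varied. fbxc-31 (R07C3.9, chromosome II) read −7.95 and −7.67 in hpl-1 his-24, where it was not well above background, −5.61 and −5.16 in hpl-2 his-24, −4.63 and −4.30 in hpl-1 hpl-2, and −5.94 and −5.88 in triple. It was at least 4.36-fold higher in hpl-1 hpl-2, 2.31-fold in hpl-2 his-24 and 1.61-fold in triple, the order seen in fbxb-117. fbxc-26 (F58E1.12, chromosome II) kept the same order, at least 4.66-fold, 3.23-fold and 2.05-fold higher. With normexp fbxc-31 and fbxc-26 passed the threshold in hpl-1 hpl-2 alone, and with the deposited values in no genotype, at 1.45 and 1.32 in hpl-1 hpl-2. fbxc-19 (T08E11.5, chromosome II) had its highest arrays in triple instead. It read −5.98 and −6.15 in hpl-1 his-24, −4.43 and −4.52 in hpl-2 his-24, −4.51 and −4.54 in hpl-1 hpl-2, and −3.80 and −3.76 in triple, with log2 fold changes of 1.58, 1.54 and 2.28 (SE 0.10 each). The hpl-2 his-24 arrays of fbxc-19 overlapped with the hpl-1 hpl-2 arrays, and without hpl-1 his-24 replicate 2 its change in hpl-1 hpl-2 was 1.45, below the fold threshold, as it was with normexp, at 0.85. fbxc-6 (C32B5.8, chromosome II, annotated as a pseudogene) rose only in hpl-2 his-24, by 2.16 (SE 0.11), against 0.74 in hpl-1 hpl-2 and 1.01 in triple. fbxc-50 (C17F4.5, chromosome II) passed no fold threshold. It read 1.14 and 1.06 in hpl-1 his-24, 2.15 and 2.25 in hpl-2 his-24, 1.94 and 2.07 in hpl-1 hpl-2, and 1.43 and 1.18 in triple, with log2 fold changes of 1.10, 0.90 and 0.20 (SE 0.12 each).

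**Figure D3:**
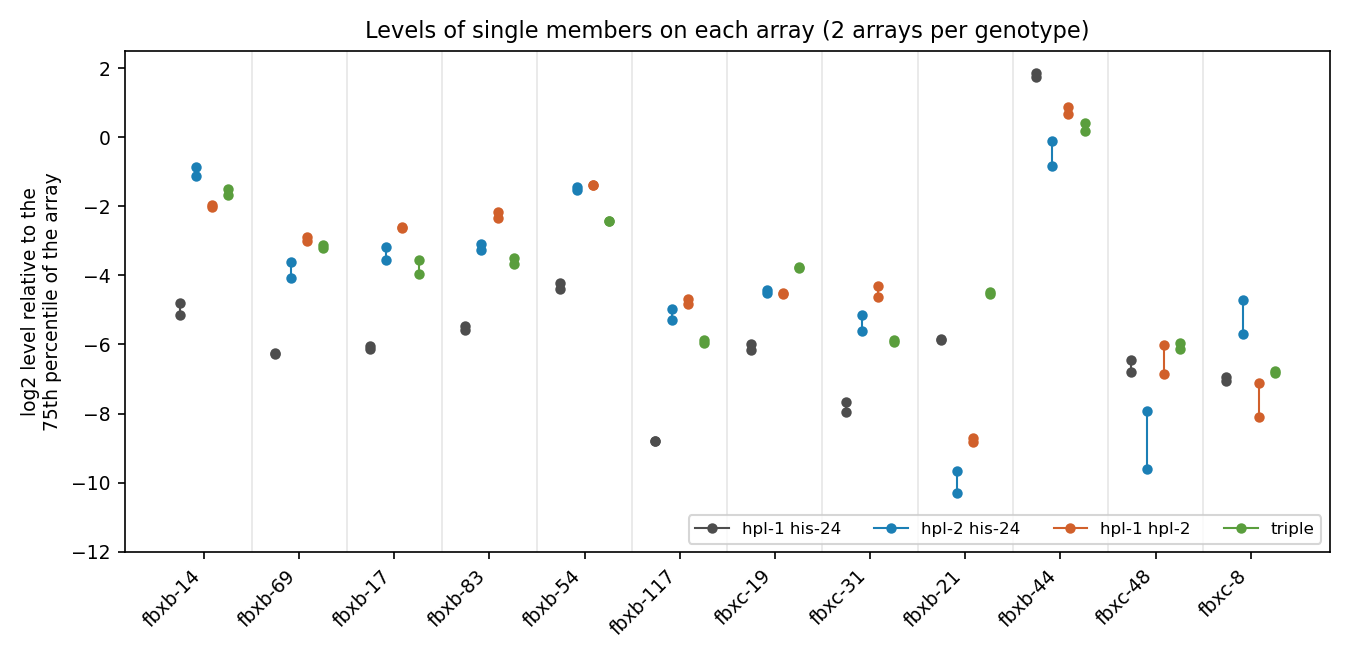
Log2 level, relative to the 75th percentile of the array, of 12 members on both arrays of each genotype; the line joins the 2 arrays of a genotype. In the first 8 genes hpl-1 his-24 is lowest, fbxb-44 is highest there, fbxb-21 is dark in hpl-2 his-24 as in hpl-1 hpl-2 (−10.31 to −8.69), and fbxc-48 and fbxc-8 have hpl-2 his-24 replicates that lie apart.

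Only 3 members fell against hpl-1 his-24 in any genotype, and each had a pattern of its own. fbxb-21 (ZC204.8, chromosome II) read −5.86 and −5.85 in hpl-1 his-24 and −4.47 and −4.54 in triple, but was not well above background at −10.31 and −9.65 in hpl-2 his-24 and at −8.81 and −8.69 in hpl-1 hpl-2. The genotypes split into a pair with signal and a pair without. Relative to hpl-1 his-24, fbxb-21 was lower by at least 5.12-fold in hpl-2 his-24 and by at least 1.71-fold in hpl-1 hpl-2, whereas in triple it was 1.35 log2 units higher (SE 0.20, adjusted p = 0.00283 by limma), below the fold threshold. Triple was at least 13.1-fold above hpl-2 his-24 and at least 4.37-fold above hpl-1 hpl-2. The 2 falls were −1.06 and −1.17 with normexp, below the fold threshold. fbxb-20, the neighbour of fbxb-21 on the cosmid ZC204, rose in all 3 genotypes as given above.

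fbxb-44 (K05F6.5, chromosome II), whose probe also matches E01A2.8, was the reverse of most members. It read 1.74 and 1.86 in hpl-1 his-24, −0.83 and −0.12 in hpl-2 his-24, 0.67 and 0.86 in hpl-1 hpl-2, and 0.41 and 0.19 in triple. The hpl-1 his-24 arrays were the 2 highest, and no genotypes overlapped. It fell by 2.27 in hpl-2 his-24 (SE 0.23, adjusted p = 0.000298 by limma), and the changes of −1.50 in triple and −1.03 in hpl-1 hpl-2 did not pass the fold threshold. The triple change lay just outside the threshold and passed it with normexp, at −1.58, with the authors' values, at −1.57, without hpl-1 his-24 replicate 1, at −1.56, and without triple replicate 1, at −1.61.

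fbxc-48 (C08G5.2, chromosome II) fell by 2.15 in hpl-2 his-24 (SE 0.54, adjusted p = 0.0127 by limma). It read −6.80 and −6.44 in hpl-1 his-24, −7.92 and −9.61 in hpl-2 his-24, −6.03 and −6.84 in hpl-1 hpl-2, and −5.97 and −6.13 in triple. Both hpl-2 his-24 arrays were the lowest but differed from each other by more than any other pair of replicates of this gene. The level of −9.61 lay below −8.28, the lowest signal on that array of probes with every spot well above background. Both hpl-1 his-24 levels also lay below theirs, −6.79 and −6.39. The sizes of the changes of fbxc-48 relative to hpl-2 his-24, here and below, are therefore uncertain. Without hpl-2 his-24 replicate 2 the change against hpl-1 his-24 was −1.30, and without hpl-1 his-24 replicate 2 it was −1.97, and neither passed. With normexp it was −0.64.

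Among the 3 genotypes that carry hpl-2(tm1489) few members passed the fold threshold. Between triple and hpl-1 hpl-2, the pair that by label differs in his-24(ok1024), 1 member rose, fbxb-21 (background 2.67%), and none fell by limma (background 1.27%). With quantile normalization 8 fell, and at an unadjusted p below 0.05 68 were lower. No background was computed for these 2 counts. At adjusted p alone 51 of 128 were lower in triple (background 10.9%) and 8 higher (background 11.7%). The median was −0.61 over fbxb- and −0.09 over fbxc- genes, against 0.02 over all identifiers and 0.16 over fbxa- genes. fbxb-31 had the lowest value of the members, −1.48 (SE 0.23, adjusted p = 0.00629 by limma), and fbxb-54 lay 1.05 lower in triple (SE 0.09, adjusted p = 0.00067). The value of fbxb-31 lay just outside the fold threshold. It was −1.65 with quantile normalization, −1.67 without hpl-1 hpl-2 replicate 1 and −1.58 without triple replicate 1. The count of lower members was smaller when any array of this pair was left out, so that a genotype kept a single array. No background was computed for those counts. The count was 20 when hpl-1 hpl-2 replicate 2 was left out, 23 without triple replicate 2, 33 without hpl-1 hpl-2 replicate 1 and 34 without triple replicate 1, and with these 4 arrays alone, which share 2 slides, it was 65 without and 69 with the slide as a block.

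Between triple and hpl-2 his-24, the pair that by label differs in hpl-1(tm1624), 2 members rose (background 9.40%) and 2 fell (background 1.49%). Those higher in triple were fbxb-21 and fbxc-48, the latter by 2.72 (SE 0.54, adjusted p = 0.00723 by limma). With normexp and with the deposited values fbxc-48 was at 0.66 and 0.53 and did not pass. Those lower in triple were fbxc-8 and fbxc-55. fbxc-8 (F58H7.7, chromosome IV), whose probe also matches C32B5.9, read −5.71 and −4.71 in hpl-2 his-24 and −6.77 and −6.83 in triple, a change of −1.59 (SE 0.40, adjusted p = 0.017 by limma) that became −1.09 without hpl-2 his-24 replicate 2 and no longer passed. It also lost its call without either triple array, with values of −1.62 and −1.56. fbxc-55 (Y27F2A.5, chromosome II) was well above background in hpl-2 his-24 alone, at −6.65 and −7.13, and was at least 1.18-fold lower in triple. With normexp and with the deposited values neither passed, fbxc-8 at −1.02 and −0.95 and fbxc-55 at −0.73 and −0.51. At adjusted p alone 13 members were higher (background 27.6%) and 40 lower (background 23.3%), and the latter count was 21 without triple replicate 2.

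In hpl-2 his-24 relative to hpl-1 hpl-2, 2 members rose (background 2.46%) and 1 fell (background 5.56%). fbxc-8 was at least 2.69-fold higher in hpl-2 his-24. fbxc-4 (C44C8.2, chromosome IV), whose probe also matches C44C8.3 and C44C8.4, read −3.28 and −3.16 in hpl-2 his-24 and −5.31 and −4.18 in hpl-1 hpl-2. It was higher on both hpl-2 his-24 arrays, by 1.52 (SE 0.35, adjusted p = 0.0128 by limma), but the change was 0.96 without hpl-1 hpl-2 replicate 1 and 1.46 without hpl-2 his-24 replicate 2, and no longer passed in either case. fbxc-48 fell by 2.33 (SE 0.54, adjusted p = 0.0128 by limma), and did not pass without hpl-2 his-24 replicate 2, at −1.49, or without hpl-1 hpl-2 replicate 1, at −1.93. With normexp and with the deposited values none of these 3 passed, fbxc-8 at 1.09 and 1.02, fbxc-4 at 1.26 and 1.31, and fbxc-48 at −0.63 and −0.43. At adjusted p alone 17 members were higher in hpl-2 his-24 (background 23.5%) and 39 lower (background 28.0%), but this split was 28 and 21 with quantile normalization and 26 and 25 with the deposited values. The count lower was 16 without hpl-1 hpl-2 replicate 2 and 24 without hpl-1 hpl-2 replicate 1.

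The members lie mostly on chromosome II, which holds 92 of the 147 (56 fbxb- and 36 fbxc-). Chromosomes I, III, IV, V and X hold 11, 8, 17, 15 and 4. The rise of fbxb- genes was not limited to chromosome II. In hpl-1 hpl-2 the tested fbxb- genes had a median log2 fold change against hpl-1 his-24 of 1.92 on chromosome I, 2.05 on II, 2.24 on III, 2.26 on IV and 2.27 on V. The 33 tested fbxc- genes of chromosome II had a median of 0.90 there and 1.21 in hpl-2 his-24. The 6 of chromosome IV had 0.18 and 1.78, and 4 of these 6 rose in hpl-2 his-24 and none in hpl-1 hpl-2. Among these 4 is fbxc-8, whose probe also matches a gene of chromosome II.

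Members were placed in 1 cluster where no more than 3 other annotated genes lie between them in RefSeq's gene order. The 147 members fell into 67 clusters, 40 of a single member, and 16 clusters of 3 or more held 85 members. The largest, 13 fbxc- genes on chromosome II of which 11 were tested, had medians of 0.74 in hpl-1 hpl-2, 1.17 in hpl-2 his-24 and 0.64 in triple against hpl-1 his-24, with 2, 4 and 2 members that rose. The cluster around F58E1, with fbxb-17 and fbxc-26 among its 9 members, was higher, with medians of 2.66, 2.11 and 1.75 and 6 of 8 tested members that rose in each genotype. On chromosome V, the cluster of fbxb-57, fbxb-60, fbxb-61, fbxb-62 and fbxb-117 had medians of 2.40, 2.73 and 2.05, and the cluster of fbxb-1, fbxb-2, fbxb-115 and fbxb-116 had 2.62, 2.39 and 2.39. At the other end, fbxb-6, fbxb-35 and fbxb-36 on chromosome II had medians of 0.49, −0.22 and 0.47. The cluster of fbxc-4, fbxc-5 and fbxc-8 on chromosome IV rose only in hpl-2 his-24, in 3 of 3 genes, with medians of 0.26, 1.78 and 0.96. The probe of fbxc-8 also matches C32B5.9 (fbxc-7) on chromosome II, so its signal cannot be placed on this cluster. That of fbxc-4 also matches C44C8.3 and C44C8.4, which lie in the same cluster. Neighbours in a cluster did not always change alike, but whether they differ less than other pairs of members was not tested. Over 62 pairs of tested members next to each other the median absolute difference of their log2 fold changes was 1.10 in hpl-1 hpl-2, 0.77 in hpl-2 his-24 and 0.73 in triple, and fbxb-20 and fbxb-21 changed in opposite directions in both hpl-1 hpl-2 and hpl-2 his-24.

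**Figure D4:**
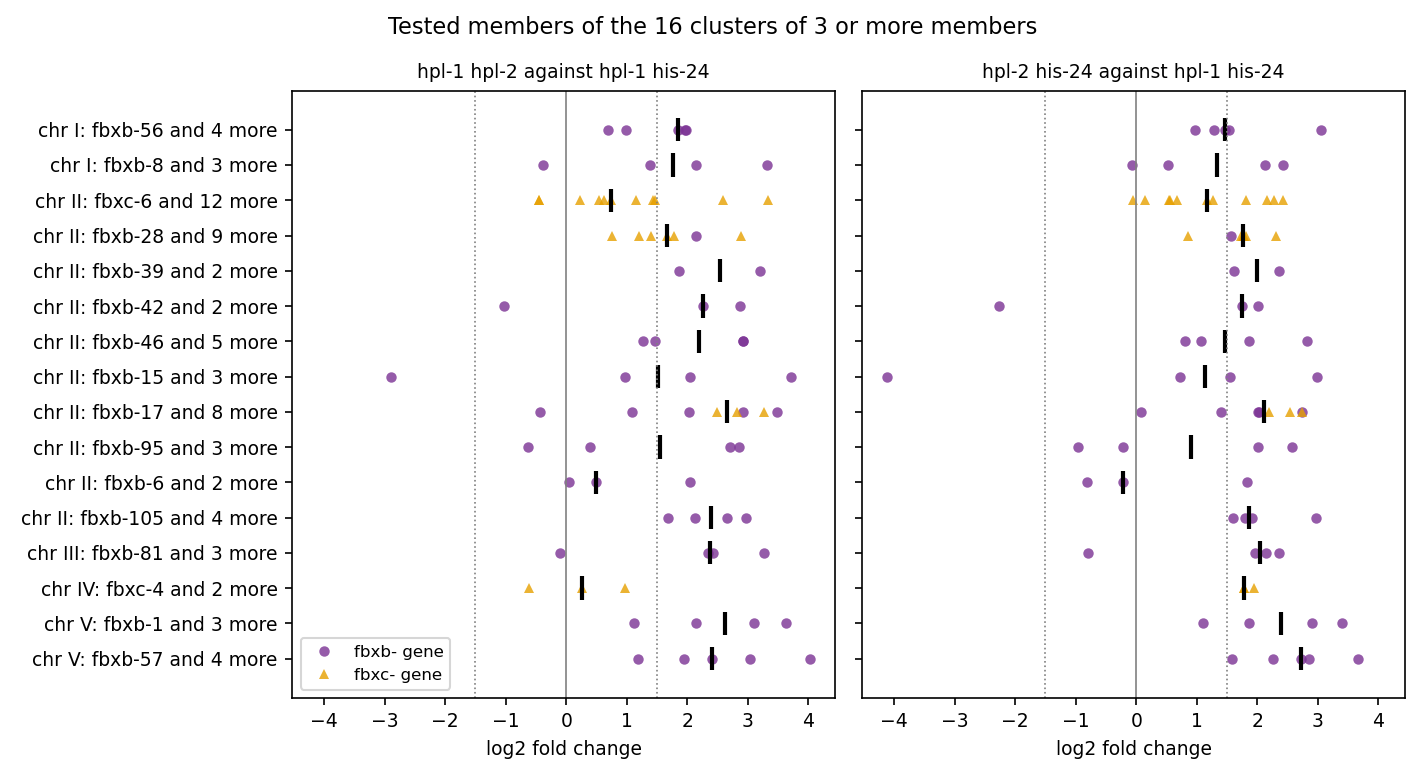
Log2 fold change against hpl-1 his-24 of the tested members of the 16 clusters of 3 or more members, in hpl-1 hpl-2 (left) and hpl-2 his-24 (right); each row is a cluster named by its chromosome and 1 member, circles are fbxb- and triangles fbxc- genes, bars are medians and dotted lines mark 1.5. The cluster medians run from 0.26 to 2.66 on the left and from −0.22 to 2.73 on the right, and most clusters hold genes on both sides of the upper line.

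Other genes stood inside or beside these 16 clusters. Of 33 genes between members 18 were tested, and against hpl-1 his-24 7, 6 and 6 rose in hpl-1 hpl-2, hpl-2 his-24 and triple (background 4.91%, 6.82% and 5.59%), and 0, 1 and 1 fell (background 3.25%, 9.72% and 2.62%). Those that rose in all 3 were fbxa-103, an F-box gene beside fbxb-69, the C-type lectin gene clec-44, the chemoreceptor gene str-148, sdz-9, sdz-10 and C32B5.15. With normexp and with the deposited values fbxa-103, str-148, sdz-10 and C32B5.15 passed the threshold in none of the 3, with normexp values from 0.76 to 1.36, and sdz-9 did not pass in triple, where it was just below the threshold with normexp and at 1.29 with the deposited values. F55C9.6, which lies in the cluster of fbxb-117, changed the other way, with log2 fold changes of −3.70 in hpl-2 his-24 and −2.52 in triple. Of the genes up to 3 places outside a cluster 56 were tested, of which 15, 12 and 10 rose and 4, 7 and 3 fell.

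Annotated pseudogenes were among the members that rose. Of 14 pseudogene members 11 were tested, and 6, 5 and 5 rose against hpl-1 his-24 in hpl-1 hpl-2, hpl-2 his-24 and triple (background 4.91%, 6.82% and 5.59%). Of 117 tested protein-coding members 66, 71 and 47 rose, with the same backgrounds. The probes of 9 members also match another gene, and for these the signal cannot be assigned to 1 gene. Without them 68, 71 and 50 of 120 tested members rose, with the same backgrounds. Close relatives of the family may share signal beyond these matches, which was not tested. fbxc-40 was read by a pair of identifiers for its transcripts, whose changes were 1.73 and 1.79 in hpl-2 his-24, 0.76 and 0.60 in hpl-1 hpl-2, and 1.22 and 1.41 in triple.

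Some partners of F-box proteins rose as well, mainly Skp1-related genes. Of 39 genes of the SCF ubiquitin ligase and its helper enzymes, all of them tested, 7 rose in hpl-1 hpl-2, 9 in hpl-2 his-24 and 4 in triple against hpl-1 his-24 (background 4.91%, 6.82% and 5.59%), and none fell by limma. At adjusted p alone 17, 25 and 13 were higher (background 20.2%, 33.5% and 22.9%) and 1, 2 and 2 lower, with 1, 2 and 4 lower at an unadjusted p below 0.05, and the medians over the list were 0.32, 0.48 and 0.07. Of those that rose, 7, 8 and 4 were among the 20 Skp1-related genes. None of the 9 other F-box genes in the list, such as lin-23 and sel-10, and none of the 6 ubiquitin and NEDD8 enzymes passed the fold threshold.

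skr-9 (C52D10.7, chromosome IV), a Skp1-related gene, had the largest rise of these. It read −3.18 and −3.12 in hpl-1 his-24, −1.02 and −0.56 in hpl-2 his-24, −0.04 and 0.24 in hpl-1 hpl-2, and −1.07 and −1.40 in triple. The hpl-1 his-24 arrays were the 2 lowest and the hpl-1 hpl-2 arrays the 2 highest, and hpl-2 his-24 and triple lay between them. Its log2 fold change was 3.25 in hpl-1 hpl-2, 2.36 in hpl-2 his-24 and 1.91 in triple (SE 0.19 each, adjusted p at most 0.000538 by limma). skr-7, skr-8, skr-10, skr-12, skr-13 and skr-14 also rose, by 1.96 to 2.61 in hpl-1 hpl-2 and by 1.66 to 2.44 in hpl-2 his-24. skr-8, skr-9, skr-12 and skr-13 lie on the cosmid C52D10, and near-identical copies among these genes may share signal, which was not tested. In triple skr-8 and skr-10 rose, by 1.57 each (SE 0.17), but did not pass without hpl-1 his-24 replicate 1 or without triple replicate 1, with values of 1.47 and 1.46. skr-6 (chromosome V) was not well above background in hpl-1 his-24, at −9.05 and −8.64, and in hpl-1 hpl-2, at −8.96 and −7.82, and was called higher in hpl-2 his-24, at −5.93 and −6.20, and in triple, at −5.94 and −6.29. The sizes of these changes are therefore uncertain. Against hpl-1 his-24 skr-6 was at 1.23 in hpl-2 his-24 and 1.11 in triple with normexp. With the deposited values it was at 1.17 and 0.90, and none of these passed the fold threshold.

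The core subunits did not pass the fold threshold. cul-1, which encodes the cullin of the SCF complex, read 1.87 and 1.69 in hpl-1 his-24, 2.30 and 2.22 in hpl-2 his-24, 1.79 and 1.97 in hpl-1 hpl-2, and 1.52 and 1.59 in triple. Its log2 fold changes against hpl-1 his-24 were 0.10 in hpl-1 hpl-2, 0.48 in hpl-2 his-24 and −0.22 in triple (SE 0.11 each). Those of rbx-1, which encodes the RING protein, were 0.30, 0.36 and −0.17 (SE 0.13 each), and those of the Skp1-related genes skr-1 and skr-2 were −0.14, −0.19 and −0.31, and 0.43, 0.40 and 0.26. cul-6, the other cullin in the list, rose in hpl-2 his-24 by 1.55 (SE 0.10), against 0.89 in hpl-1 hpl-2 and 0.75 in triple. Its change in hpl-2 his-24 was 1.49 without hpl-2 his-24 replicate 2 and 1.47 with normexp, below the fold threshold.

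**Figure D5:**
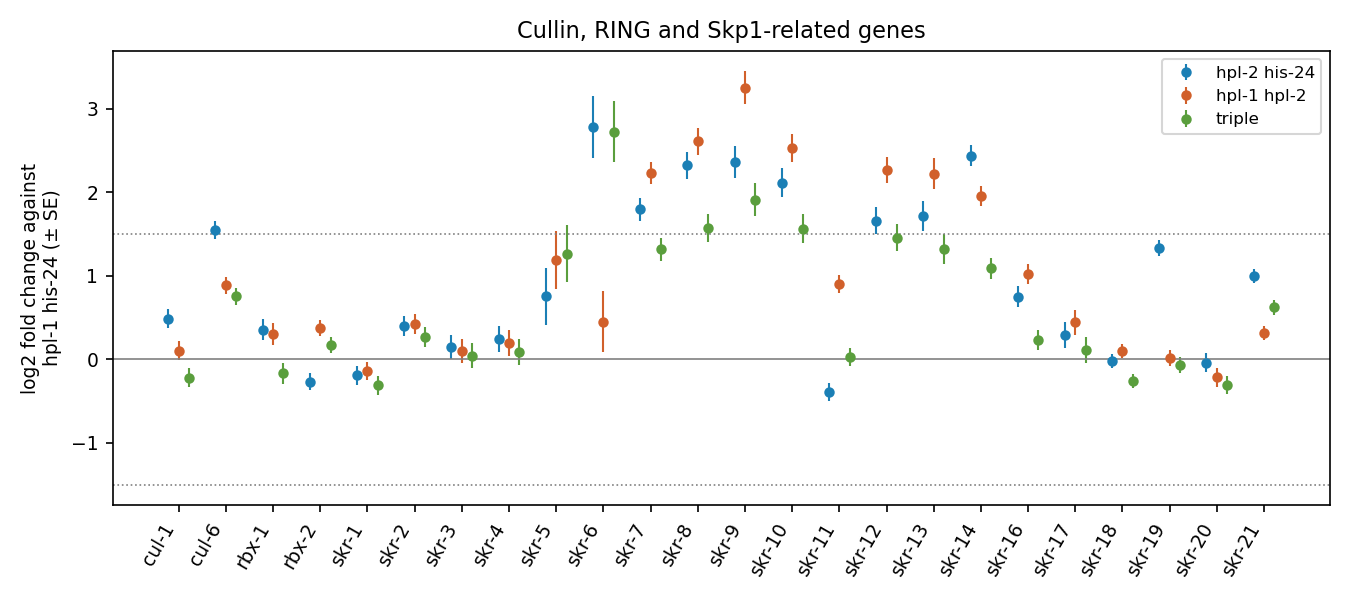
Log2 fold change against hpl-1 his-24, with the standard error of the limma fit, of 2 cullin, 2 RING and 20 Skp1-related genes in the other 3 genotypes; dotted lines mark 1.5. skr-7 to skr-10 and skr-12 to skr-14 lie at 1.66 or more in both hpl-1 hpl-2 and hpl-2 his-24, while cul-1, rbx-1, skr-1 and skr-2 lie between −0.31 and 0.48.

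Markers of tissue and stage were compared across the same arrays. Every list held signal and none of its markers found was dark on all arrays, with 7 of 10 sperm markers found. Of 34 markers none rose against hpl-1 his-24 by limma (background 4.91%, 6.82% and 5.59%), and 1, 3 and 0 fell in hpl-1 hpl-2, hpl-2 his-24 and triple (background 3.25%, 9.72% and 2.62%). At adjusted p alone 8, 4 and 4 were higher (background 20.2%, 33.5% and 22.9%) and 6, 9 and 10 lower (background 18.7%, 32.1% and 19.1%). At an unadjusted p below 0.05, 10, 5 and 4 were higher and 7, 11 and 12 lower. The summed log2 level of the 2 pharynx markers was −0.68 and −0.55 in hpl-1 his-24, from −1.19 to −0.95 on the hpl-2 his-24 and triple arrays, and 0.65 and 0.73 in hpl-1 hpl-2. This sum was highest in hpl-1 hpl-2, where most tested members had their highest mean. In hpl-2 his-24 and triple it was below its level in hpl-1 his-24, where the members were lowest. That of the 3 epidermis markers was 6.22 and 6.03 in hpl-1 his-24, and 4.91 to 6.08 on the other 6 arrays. The sum of the 6 yolk genes was 7.47 and 7.82 in triple and 7.89 to 8.62 elsewhere. The sperm sum ranged from 6.24 to 7.32 and the oocyte sum from 6.74 to 7.08. Their part in the changes of the fbxb- and fbxc- genes was not tested.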

How the data were processed

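The deposited scanner files hold a brightness intensity for each spot of 8 one-colour Agilent arrays. Agilent Feature Extraction, named in the submitters' processing notes with limma, had subtracted the background from these intensities. The log2 values that the authors deposited for the same arrays followed the log2 median signal without background subtraction (correlation 0.998 or more), with column medians equalised near 9.69, and were used as an alternative. Every column of sample values was used (0 unused). The precision of array values is limited by their number, 2 per genotype, and the study's methods call them biological replicates.

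Here log2 intensities were taken relative to the 75th percentile of each array, spots of a probe were averaged, and an identifier was read by its brightest probe. Of 20113 identifiers 17092 were tested, those for which in 1 or more genotypes both arrays were well above background. The 4 genotype means were fitted with limma 3.58.1 in R 4.3.3 over all 8 arrays and compared pairwise, with Benjamini-Hochberg adjustment over all tested identifiers. No background was computed for the counts at an unadjusted p. The script was checked on simulated data. Symbols came from RefSeq for 18124 of 19441 genes, and only its gene order was used, since the sources used here name no build for the probes.

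A probe was taken as well above background on an array where the scanner software marked at least 50% of its spots so. For bounds, a dim genotype was set on each array at the lowest signal among probes with every spot so marked, or at the probe's own value if higher. Single members were named by rule: up to 4 of the largest rises and falls in each comparison, those listed by the study, those nearest the threshold, and the brightest and dimmest of each subfamily, with every SCF gene that was called and cul-1, rbx-1, skr-1 and skr-2. The members and lists were chosen with earlier results of these data known. Alternatives were quantile normalization, normexp with an offset of 50, the deposited log2 values, no filter, a filter on all 8 arrays, the mean of probes, each array left out, the replicate number and the slide as blocks, and no fold threshold. Deviations of same-numbered arrays correlated at −0.30 to 0.18 over the pairs of genotypes, not positive in every pair, so the numbers were not taken to pair the arrays.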

Additional observations from a re-analysis of the deposited data

How the results depend on the processing

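Counts are of members past the threshold in both directions. Triple against hpl-1 hpl-2 gave 1, and 9 with quantile normalization, 0 among members well above background on all 8 arrays, 59 at adjusted p alone and 1 to 6 with 1 array left out. Triple against hpl-1 his-24 gave 52, and 34 with quantile normalization, 8 with normexp, 6 with the deposited log2 values, 21 with the filter on all 8 arrays, 98 at adjusted p alone and 46 to 59 with 1 array left out. Triple against hpl-2 his-24 gave 4, and 7, 1, 1, 0, 53 and 3 to 6 in the same order. hpl-1 hpl-2 set against hpl-1 his-24 gave 73, and 34 with normexp, 26 with the deposited values, 35 with the filter on all 8 arrays and 71 to 77 with 1 array left out. hpl-2 his-24 set against hpl-1 his-24 gave 79, and 21, 26, 41 and 71 to 83 in that order. hpl-2 his-24 set against hpl-1 hpl-2 gave 3, and 0, 0, 1 and 2 to 5 in that order, with 10 without a filter, 56 at adjusted p alone and 1 without the probes that match another gene. The F test gave 114, and 70 with the filter on all 8 arrays, which tests fewer members, and 110 to 117 with 1 array left out. Normexp adds an offset and the deposited values hold the background, so both shrink differences of dim probes by construction. For the other changes the cause was not tested.

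Counts at adjusted p alone were recomputed under each setting, and the probes that match another gene were left out, as choices made after seeing the data. Triple against hpl-1 hpl-2 gave 59, and 39 with the filter on all 8 arrays and 23 to 74 with 1 array left out. Triple against hpl-1 his-24 gave 98, then 59 and 89 to 104. hpl-1 hpl-2 set against hpl-1 his-24 gave 104, then 61 and 98 to 106. hpl-2 his-24 set against hpl-1 his-24 gave 111, then 65 and 104 to 111. Triple against hpl-2 his-24 gave 53, and 84 with quantile normalization, 88 with the deposited values and 30 to 59 with 1 array left out. hpl-2 his-24 set against hpl-1 hpl-2 gave 56 (17 higher, 39 lower), 49 with quantile normalization (28 higher, 21 lower), 51 with the deposited values (26 higher, 25 lower) and 29 to 59 with 1 array left out.

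With the replicate number as a block the 6 comparisons gave 1, 51, 4, 73, 79 and 3 members in the order of the first paragraph, and the F test 114, and at adjusted p alone 53, 96, 51, 104, 109 and 51. Same-numbered hpl-1 hpl-2 and triple arrays deviated against each other (correlation −0.30), and with the crossed pairing, which is that of their shared slides, these 4 arrays gave 1 member past both thresholds and 92 at adjusted p alone (84 with the same 4 arrays and no block). With a random block for the slide over all arrays the comparisons with hpl-1 his-24 gave 52, 73 and 79, as in the main results. Of the changes of single genes, skr-1 in hpl-1 hpl-2 turned from −0.14 to 0.024 relative to hpl-1 his-24 with quantile normalization, neither past the threshold. Under normexp or the deposited values 162 of the values of single genes lost their call, under the other settings 4, and with 1 array left out 30.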
